A study of Mus musculus with 12 samples.

Results

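Genes of glycolysis and of the response to low oxygen were followed across preparations labelled as aortic endothelial cells of mouse offspring whose mothers and who themselves had received CD or WD. The genes were 10 chosen by symbol: the glucose transporter Slc2a1, the hexokinases Hk1 and Hk2, the phosphofructokinases Pfkl and Pfkp, Aldoa, Pgk1, Eno1, Ldha and Higd1a. Of these 10, 9 had a row of their own among the 10655 genes of the deposited table, and Eno1 was not analysed here. The 12 libraries fell into 4 groups of 3: WD offspring of WD mothers (WD_WD), WD offspring of CD mothers (CD_WD), CD offspring of WD mothers (WD_CD) and CD offspring of CD mothers (CD_CD). Library names join both diets without saying whose is whose; the mother's is taken to come first, since the series text writes the groups in that order. The offspring on WD had received it again for 4 weeks, and the title of the series names a high-fat diet of the mother and atherosclerosis of her offspring. No genotype, sex, age, sort or batch is given, nor whether replicates came from separate animals. The p-values below therefore measure the spread between these libraries, which may be technical.

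Glycolysis breaks glucose down to pyruvate in the cytosol and yields ATP without oxygen. Slc2a1 brings glucose into the cell, hexokinases trap it by phosphorylation, phosphofructokinase commits it to the pathway, aldolase splits the sugar, and phosphoglycerate kinase and enolase carry the fragments toward pyruvate, which lactate dehydrogenase turns into lactate. Under low oxygen the transcription factors HIF-1α (Hif1a) and HIF-2α (Epas1) bind short elements with the core ACGTG or GCGTG, and HIF-1α switches on many of these genes. Endothelial cells are known for making most of their ATP by glycolysis, and activated macrophages also raise it. Higd1a, induced by low oxygen, encodes a small protein of the inner mitochondrial membrane.

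The number of reads in the table's genes lay between 4074413 and 19670570 per library. The summed endothelial, neutrophil and B and dendritic cell markers did not overlap between the offspring diets, whereas the sums of the other cell types overlapped. All 15 endothelial markers were measured, and their summed normalised counts, meaning reads after division by each library's size factor, lay between 2272 and 37048 in WD offspring and between 58730 and 97640 in CD offspring. The 16 macrophage and monocyte markers summed to between 82549 and 1751120 in WD offspring and to between 11794 and 150734 in CD offspring. In each WD library, and in WD_CD replicate 1, this macrophage sum was above the endothelial sum, which goes against the label of an endothelial preparation. Neutrophil markers, 7 of 8 measured, summed to between 15011 and 197762 in WD offspring and to between 152 and 1448 in CD offspring. Among T and NK cell markers 11 of 12 were measured, with sums between 3084 and 68138 in WD offspring and between 555 and 3209 in CD offspring. B and dendritic cell markers, 9 of 10 measured, summed to between 7838 and 354225 in WD offspring and to between 430 and 4765 in CD offspring. Smooth muscle markers, 10 of 10 measured, summed to between 1232 and 23935 in WD offspring and to between 12872 and 87320 in CD offspring. Fibroblast markers, 9 of 10 measured, overlapped, at 2943 to 86360 in WD offspring and 32023 to 76776 in CD offspring. Striated muscle markers, 9 of 10 measured, summed to between 643 and 4862 in WD offspring and to between 503 and 2133 in CD offspring, and adipocyte markers, 6 of 7 measured, to between 6662 and 24248 in WD offspring and to between 6372 and 32836 in CD offspring. Of the endothelial markers Robo4 alone was at 0 in a library, a WD one, whereas, among others, Csf3r, Il1r2 and Hcar2 of neutrophils, Klrd1 of NK cells and Cd79b, Cd209a, Flt3, Itgax and Clec9a of B and dendritic cells were each at 0 in at least 1 CD library. CD_WD replicate 1 stood apart within its group, with the lowest endothelial sum of all 12 libraries and the highest sum of T and NK cell and of B and dendritic cell markers. The endothelial, neutrophil and B and dendritic cell sums split by offspring diet, the same split by which the genes below are compared. The part of any cell type in those differences was not tested. In such bulk RNA, more cells of a type and more RNA per cell cannot be told apart.

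The promoters of the genes that differed most between offspring diets are shown for the HIF core motif they hold, together with that of Hk1, the hexokinase that did not rise. Each runs from 250 bases before to 50 bases after a RefSeq transcription start (GRCm38.p6), 5′ to 3′ on the gene's strand. Capitals mark ACGTG or GCGTG on either strand, so that CACGT and CACGC are the same motifs on the other strand, and CACGTG counts as 2 overlapping matches. The Hk2 promoter lies at chr6:82774405-82774704 (minus strand), that of Higd1a at chr9:121857747-121858046 (minus strand), that of the first Ldha start at chr7:46845554-46845853 (plus strand) and that of the second Hk1 start at chr10:62340372-62340671 (minus strand).
Hk2: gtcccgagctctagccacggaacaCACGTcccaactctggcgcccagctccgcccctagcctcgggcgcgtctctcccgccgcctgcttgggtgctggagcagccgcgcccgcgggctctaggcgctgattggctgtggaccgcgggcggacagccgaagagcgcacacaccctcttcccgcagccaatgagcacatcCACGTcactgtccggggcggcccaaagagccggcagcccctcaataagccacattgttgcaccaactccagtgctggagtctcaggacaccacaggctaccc
Higd1a: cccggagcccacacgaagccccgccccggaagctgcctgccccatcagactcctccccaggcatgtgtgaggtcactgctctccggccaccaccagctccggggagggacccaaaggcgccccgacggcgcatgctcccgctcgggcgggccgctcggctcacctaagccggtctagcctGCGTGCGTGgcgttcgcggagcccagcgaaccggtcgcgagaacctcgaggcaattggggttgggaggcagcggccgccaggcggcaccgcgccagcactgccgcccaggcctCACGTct
Ldha: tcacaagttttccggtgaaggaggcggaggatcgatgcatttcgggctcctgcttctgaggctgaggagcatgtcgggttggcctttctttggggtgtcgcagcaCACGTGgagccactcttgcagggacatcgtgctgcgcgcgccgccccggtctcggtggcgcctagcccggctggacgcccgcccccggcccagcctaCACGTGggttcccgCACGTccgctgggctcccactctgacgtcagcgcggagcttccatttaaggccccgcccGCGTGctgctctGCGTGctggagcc
Hk1: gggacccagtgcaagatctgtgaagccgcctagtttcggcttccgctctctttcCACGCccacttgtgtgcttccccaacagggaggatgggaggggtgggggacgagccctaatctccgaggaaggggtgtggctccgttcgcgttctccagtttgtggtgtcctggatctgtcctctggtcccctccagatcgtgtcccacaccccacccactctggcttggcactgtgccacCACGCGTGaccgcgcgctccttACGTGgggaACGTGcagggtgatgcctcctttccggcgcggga
The Hk2 promoter held 2 matches, both ACGTG, which begin at -226 and -52 from the start. That of Ldha held 7 matches, 5 of them ACGTG, with 2 CACGTG palindromes beginning at -145 and -48. Higd1a had 3 matches at -70, -66 and 44, of which the last was ACGTG. The Hk1 start shown had 5 matches, 2 of them ACGTG. Of the starts not shown for these genes, the first of Hk1 had 0 matches and the second of Ldha had 2, with 0 ACGTG. Across the 13 RefSeq starts of the 9 genes, 11 promoters held a match and 8 held ACGTG. Of the 10480 promoters of genes in the table, 62.3% held either motif and 25.9% held ACGTG, against 43.8% and 19.6% of all 32851 promoters. A match is only a string of letters and no measured binding site.

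The Slc2a1 transcript, of the entry step, did not pass the test in either comparison of the offspring's diet at the deposited scaling. Slc2a1 (chromosome 4, 119108711 to 119137983, plus strand, GRCm38, GENCODE M21, as for all positions below), which encodes the glucose transporter GLUT1, had 560.0, 1039 and 436 normalised counts in WD_WD and 326, 397 and 119.7 in WD_CD. With CD mothers it had 375, 621 and 424 normalised counts in CD_WD, against 569, 567 and 389 in CD_CD. The WD_WD libraries lay above all WD_CD libraries, while CD_WD and CD_CD overlapped. On the log2 scale, on which all fold changes are given after a pseudocount of 1, the offspring's diet gave 1.34 ± 0.49 (SE) with WD mothers, with limma's adjusted p = 0.0629, and -0.11 ± 0.49 with CD mothers, adjusted p = 0.911. Their difference, the interaction, was 1.45 ± 0.69 with an unadjusted p = 0.0562 and adjusted p = 0.997. Scaled to equal totals in place of the deposited size factors, Slc2a1 turned to log2 -0.042 with WD mothers (adjusted p = 0.956) and was called lower with CD mothers (log2 -1.56, adjusted p = 0.0408). The median of all genes at that scaling was log2 -1.36 with WD mothers and -1.45 with CD mothers. WD_CD replicate 3 had the lowest Slc2a1 level of the 12 libraries, and without it and CD_WD replicate 1 the difference with WD mothers was 0.81 with adjusted p = 0.177.

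At the hexokinase step the isoenzymes parted. Hk2, the inducible form of the enzyme that phosphorylates glucose, rose in WD offspring in both families of mothers, whereas Hk1, the form that most tissues express steadily, had lower levels there without passing the test. Hk2 (chromosome 6, 82725025 to 82774454, minus strand) had 1813, 1709 and 2653 normalised counts in WD_WD and 264, 162 and 274 in WD_CD. With CD mothers, Hk2 had 796, 1716 and 1538 normalised counts in CD_WD and 97.8, 258 and 146 in CD_CD. Every WD library was above every CD library, and the lowest WD library was CD_WD replicate 1. The rise of Hk2 was 8.85-fold with WD mothers (log2 3.15 ± 0.44, adjusted p = 0.000701) and 8.24-fold with CD mothers (log2 3.04 ± 0.44, adjusted p = 0.00154).

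Among all genes, limma called 24.4% between WD_WD and WD_CD at an adjusted p under 0.05 (14.2% higher and 10.2% lower) and 15% between CD_WD and CD_CD (9.46% higher and 5.55% lower). Of the 9 genes described here, 4 were called with WD mothers and 3 with CD mothers, all of them higher. The count of all genes called was 2604 with WD mothers, but 1593 without WD_CD replicate 2 and 1723 without WD_CD replicate 3, and 1599 with CD mothers, but 698 without CD_CD replicate 1 and 705 without CD_CD replicate 2. Direction depended, for much of the table, on whether the deposited scaling or equal totals was used. TMM scaling, another alternative, stayed near the deposited scaling. It called 1384 genes higher and 1276 lower with WD mothers, and 926 higher and 659 lower with CD mothers. The median of all genes moved with it by -0.12 with WD mothers and by -0.09 with CD mothers. When libraries were scaled to equal totals in place of the deposited size factors, the median of all genes moved by -1.36 with WD mothers and by -1.43 with CD mothers. The calls over all genes then split into 439 higher and 4284 lower with WD mothers, against 1516 higher and 1088 lower as deposited, and into 291 higher and 4097 lower with CD mothers, against 1008 higher and 591 lower as deposited. Of the 9 genes, equal totals called 2 higher and 2 lower with WD mothers and 2 higher and 4 lower with CD mothers. The 20 most abundant genes held 35.4% to 46.2% of all reads in a WD library and 12.9% to 14.4% in a CD library. Hk2 stayed called higher under equal totals, with log2 1.76 with WD mothers (adjusted p = 0.0227) and 1.60 with CD mothers (adjusted p = 0.0368).

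Hk1 (chromosome 10, 62268855 to 62379908, minus strand) had 193, 196 and 424 normalised counts in WD_WD and 480.2, 510.4 and 697 in WD_CD. With CD mothers Hk1 had 266, 245 and 351 normalised counts in CD_WD and 318, 609.7 and 486 in CD_CD. The groups did not overlap with WD mothers and did overlap with CD mothers. Neither difference passed, at log2 -1.14 ± 0.42 (adjusted p = 0.0638) with WD mothers and -0.68 ± 0.42 (adjusted p = 0.303) with CD mothers. Under equal totals Hk1 was called lower in both comparisons, with log2 -2.52 (adjusted p = 0.00266) with WD mothers and -2.12 (adjusted p = 0.00726) with CD mothers, and library weights called it with CD mothers (log2 -0.88, adjusted p = 0.0181). Hk1 with WD mothers passed without WD_WD replicate 3 (log2 -1.51, adjusted p = 0.0252), and an antisense gene, Hk1os, overlaps an exon of Hk1, so its counts are uncertain as the handling of strand is not given in the sources used here.

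**Figure D1:**
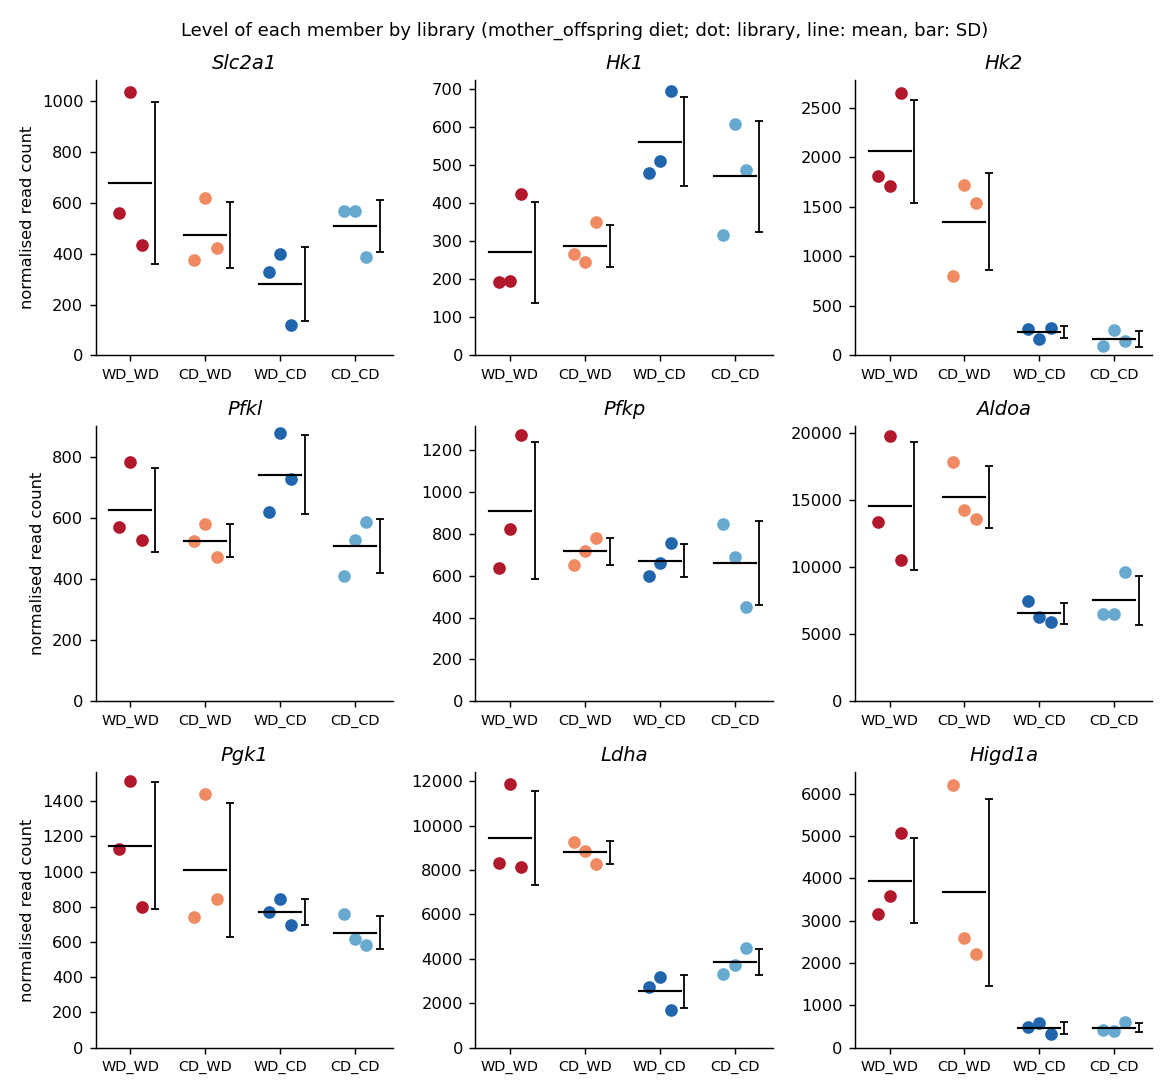
Normalised read count (y axis, linear from 0) of each of the 9 genes in each library, with the groups WD_WD, CD_WD, WD_CD and CD_CD along the x axis; dots are libraries, lines are means and bars are SD (n = 3). Hk2, Higd1a, Ldha and Aldoa lie higher in every WD library than in any CD library; scaled to equal totals, Aldoa turns to lower with both kinds of mothers and Ldha with CD mothers.

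The ratio of both hexokinases within a library does not depend on its size factor. Hk2 to Hk1 lay between 2.98 and 9.37 in the 6 WD libraries and between 0.302 and 0.550 in the 6 CD libraries. On the log2 scale it averaged 2.997 ± 0.31 in WD_WD and -1.29 ± 0.40 in WD_CD (SD, n = 3 each), and 2.17 ± 0.61 in CD_WD and -1.55 ± 0.27 in CD_CD. Hexokinase 2 counts thus exceeded those of hexokinase 1 in each WD library and were below them in each CD library. The offspring's diet shifted the log2 ratio by 4.00, with a two-sided exact permutation p = 0.005, the smallest that 400 arrangements of the libraries within each mother's diet can give, and p = 0.03 adjusted over 6 ratio tests. The mother's diet gave 0.55, exact permutation p = 0.065, adjusted p = 0.18. Leaving out any one library left the shift with the offspring's diet between 3.84 and 4.15.

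**Figure D2:**
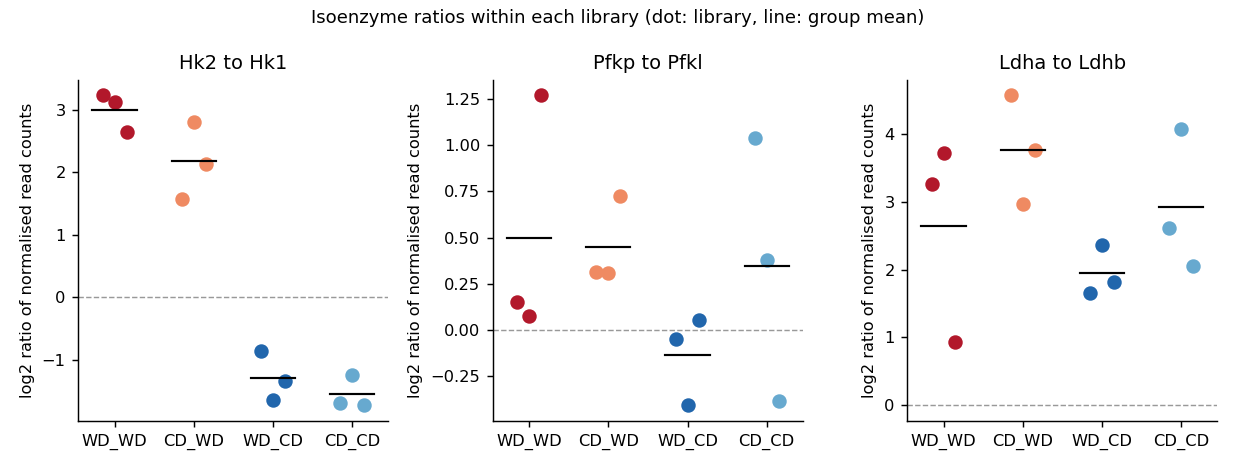
Log2 ratio of normalised read counts (y axis) within each library for Hk2 to Hk1, Pfkp to Pfkl and Ldha to Ldhb, with the groups WD_WD, CD_WD, WD_CD and CD_CD along the x axis; dots are libraries and lines are group means. For Hk2 to Hk1 the 6 WD libraries lie between 1.58 and 3.23 and the 6 CD libraries between -1.73 and -0.86, while the other ratios overlap.

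At the committed step neither phosphofructokinase transcript passed in any comparison at the deposited scaling. Pfkl (chromosome 10, 77986947 to 78010083, minus strand), the liver type subunit of phosphofructokinase, averaged 626 ± 137 normalised counts in WD_WD and 742 ± 129 in WD_CD (SD, n = 3 each), and 525 ± 54.4 in CD_WD and 509 ± 89.0 in CD_CD. Pfkp (chromosome 13, 6579768 to 6648777, minus strand), the platelet type subunit, averaged 909.6 ± 327 normalised counts in WD_WD and 672 ± 78.7 in WD_CD, and 716 ± 63.7 in CD_WD and 661 ± 199 in CD_CD. Both genes overlapped between the offspring diets. The log2 difference of Pfkl was -0.25 (95% interval -0.92 to 0.42) with WD mothers and 0.06 (-0.61 to 0.73) with CD mothers. That of Pfkp was 0.38 (95% interval -0.36 to 1.131) with WD mothers and 0.16 (-0.59 to 0.91) with CD mothers. Under equal totals Pfkl was called lower with WD mothers (log2 -1.63, adjusted p = 0.0047) and with CD mothers (log2 -1.39, adjusted p = 0.0121), and Pfkp with CD mothers (log2 -1.28, adjusted p = 0.0346). At that scaling the median of all genes was itself -1.36 with WD mothers and -1.45 with CD mothers. Of all 10655 genes, 4284 and 4097 were then called lower, so these calls go with a shift of the whole table. Within libraries, the log2 ratio of Pfkp to Pfkl moved by 0.37 with the offspring's diet (exact permutation p = 0.275, adjusted p = 0.33).

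At the cleavage step the Aldoa transcript was higher in WD offspring at the deposited scaling and passed the test with WD mothers. Aldoa (chromosome 7, 126795234 to 126800751, minus strand), which encodes the aldolase of muscle and most other cells, had 13375, 19802 and 10504 normalised counts in WD_WD and 7451, 6304 and 5953 in WD_CD. With CD mothers Aldoa had 17858, 14222 and 13581 normalised counts in CD_WD and 6478, 6486 and 9646 in CD_CD. Every WD library was above every CD library. Aldoa rose 2.15-fold with WD mothers (log2 1.10 ± 0.35, adjusted p = 0.038), a direction that turned under equal totals (log2 -0.28), and its difference with CD mothers was log2 1.03 ± 0.35 (adjusted p = 0.068) and -0.41 under equal totals. With CD mothers it was called by DESeq2 on the recovered reads (log2 1.01, adjusted p = 0.0157) and with library weights in limma (log2 0.88, adjusted p = 0.00473). The call with WD mothers was lost without WD_WD replicate 1 or 2 or any WD_CD library, with adjusted p between 0.0582 and 0.134, and held without WD_WD replicate 3. Aldoa counts are uncertain as well, since an exon overlaps Fam57b and 2 annotated pseudogenes carry its name.

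Pgk1 (chromosome X, 106187100 to 106203699, plus strand), the first enzyme of the pathway to make ATP, averaged 1148 ± 359 normalised counts in WD_WD and 771 ± 73.7 in WD_CD, and 1009 ± 378 in CD_WD and 653 ± 95.1 in CD_CD. The groups overlapped, and the log2 differences of 0.53 ± 0.34 (adjusted p = 0.271) with WD mothers and 0.57 ± 0.34 (adjusted p = 0.288) with CD mothers did not pass. With CD mothers, library weights in limma called Pgk1 higher (log2 1.04, adjusted p = 0.00251), while equal totals turned it to log2 -0.87. For enolase, the table held a row named Eno1b, a near-identical copy of Eno1 on chromosome 18. Whether reads of Eno1 and Eno1b can be told apart was not tested, so the source of the reads in this row is uncertain. The Eno1b row was chosen after its values were seen. Eno1b had 1351, 2076 and 1089 normalised counts in WD_WD and 559.5, 367 and 419 in WD_CD, and 3085, 1873 and 1208 in CD_WD and 429.8, 313 and 244 in CD_CD. It was higher in every WD library, by log2 1.71 ± 0.40 (adjusted p = 0.0101) with WD mothers and 2.57 ± 0.40 (adjusted p = 0.00216) with CD mothers. Under equal totals Eno1b was called with CD mothers alone (log2 1.131, adjusted p = 0.0255) and was at log2 0.33 with WD mothers (adjusted p = 0.463).

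The Ldha transcript, of the last step from pyruvate to lactate, rose with WD in both families of mothers under the deposited scaling. Ldha (chromosome 7, 46841475 to 46855627, plus strand), the A subunit of lactate dehydrogenase, had 8317, 11894 and 8156 normalised counts in WD_WD and 2751, 3166 and 1709.9 in WD_CD. With CD mothers Ldha had 9279, 8836 and 8258 normalised counts in CD_WD and 3336, 3733 and 4492 in CD_CD. No WD library overlapped a CD library, and the WD libraries without the highest one, WD_WD replicate 2, lay within a narrow range. Ldha rose 3.78-fold with WD mothers (log2 1.92 ± 0.32, adjusted p = 0.0018), which under equal totals was log2 0.53 and no longer called (adjusted p = 0.225). With CD mothers it rose 2.30-fold (log2 1.199 ± 0.32, adjusted p = 0.0256), which under equal totals turned to log2 -0.25 (adjusted p = 0.579). That second call was lost without CD_WD replicate 2, CD_CD replicate 1 or CD_CD replicate 2 (adjusted p = 0.0591, 0.105 and 0.0875) and with edgeR on the recovered reads (adjusted p = 0.0513), whereas the call with WD mothers held without any single library. In the annotation 2 pseudogenes carry the name of Ldha and 3 that of Pgk1, so reads shared with these copies leave their counts uncertain. Against Ldhb, the subunit typical of heart, the log2 ratio of Ldha moved by 0.77 with the offspring's diet (exact permutation p = 0.185, adjusted p = 0.278) and by -1.05 with the mother's diet (exact permutation p = 0.09, adjusted p = 0.18).

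Higd1a (chromosome 9, 121848563 to 121858362, minus strand), the hypoxia-induced mitochondrial protein, rose in WD offspring of both families of mothers. It had 3159, 3592 and 5068 normalised counts in WD_WD and 499, 573 and 319 in WD_CD. With CD mothers Higd1a had 6209, 2584 and 2214 normalised counts in CD_WD and 419, 398 and 598 in CD_CD. The libraries of both offspring diets were wide apart, and the highest of all was CD_WD replicate 1, the library in which Hk2 was lowest among WD offspring. Higd1a rose 8.56-fold with WD mothers (log2 3.10 ± 0.41, adjusted p = 0.000568) and 7.07-fold with CD mothers (log2 2.82 ± 0.41, adjusted p = 0.00157). It stayed called higher under equal totals, with log2 1.71 (adjusted p = 0.00402) and 1.38 (adjusted p = 0.0128). An exon of Higd1a overlaps the gene model Gm47112. Exons of Slc2a1, Pfkp and Eno1b also overlap other genes, in turn Gm12868, Pitrm1 and AC150274.2, so their counts are uncertain too.

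**Figure D3:**
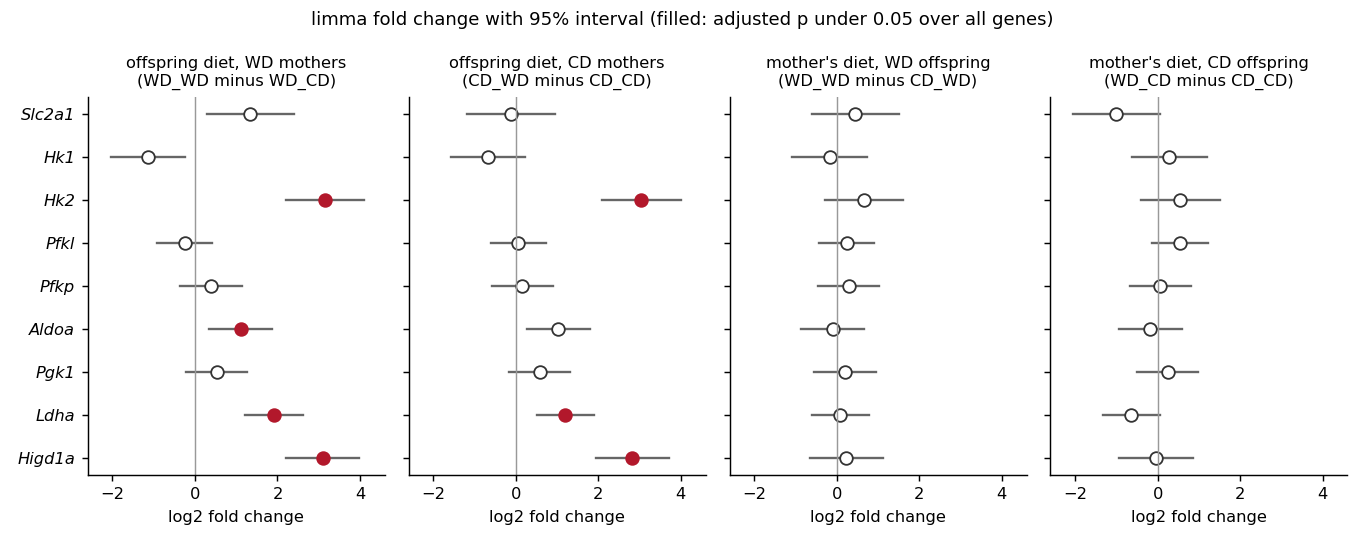
Log2 fold change from limma (x axis) with its 95% interval for each of the 9 genes (y axis) in 4 comparisons, from left to right WD_WD against WD_CD, CD_WD against CD_CD, WD_WD against CD_WD and WD_CD against CD_CD; filled points have an adjusted p under 0.05. Hk2, Higd1a and Ldha are filled for both comparisons of the offspring's diet, Aldoa for that with WD mothers, and no gene for the mother's diet; under equal totals Ldha with CD mothers and Aldoa with both turn to lower.

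CD_WD replicate 1, by its markers, and WD_CD replicate 3, with 463 genes without reads against at most 202 in any other library, stood apart. Leaving both out, a choice made after seeing the data, kept the calls of these genes: with WD mothers Hk2 had log2 3.28 (adjusted p = 0.000395), Higd1a 2.85 (adjusted p = 0.000134), Ldha 1.66 (adjusted p = 0.00124) and Aldoa 1.04 (adjusted p = 0.0365). With CD mothers, without the same libraries, Hk2 had log2 3.38 (adjusted p = 0.000854), Higd1a 2.36 (adjusted p = 0.000862) and Ldha 1.16 (adjusted p = 0.0163). Hk2 and Higd1a also kept their calls, in both comparisons, without any single library. Within WD offspring, macrophage marker sums were lowest in CD_WD replicate 1, at 82549, a value below that of WD_CD replicate 1, at 150734. Hk2 was 796 normalised counts in CD_WD replicate 1 and 264 in WD_CD replicate 1, and Higd1a was 6209 and 499 in the same libraries. The other white blood cell markers were higher in CD_WD replicate 1 than in WD_CD replicate 1, with sums of 66275 and 1448 for neutrophils, 68138 and 3209 for T and NK cells, and 354225 and 4765 for B and dendritic cells.

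**Figure D4:**
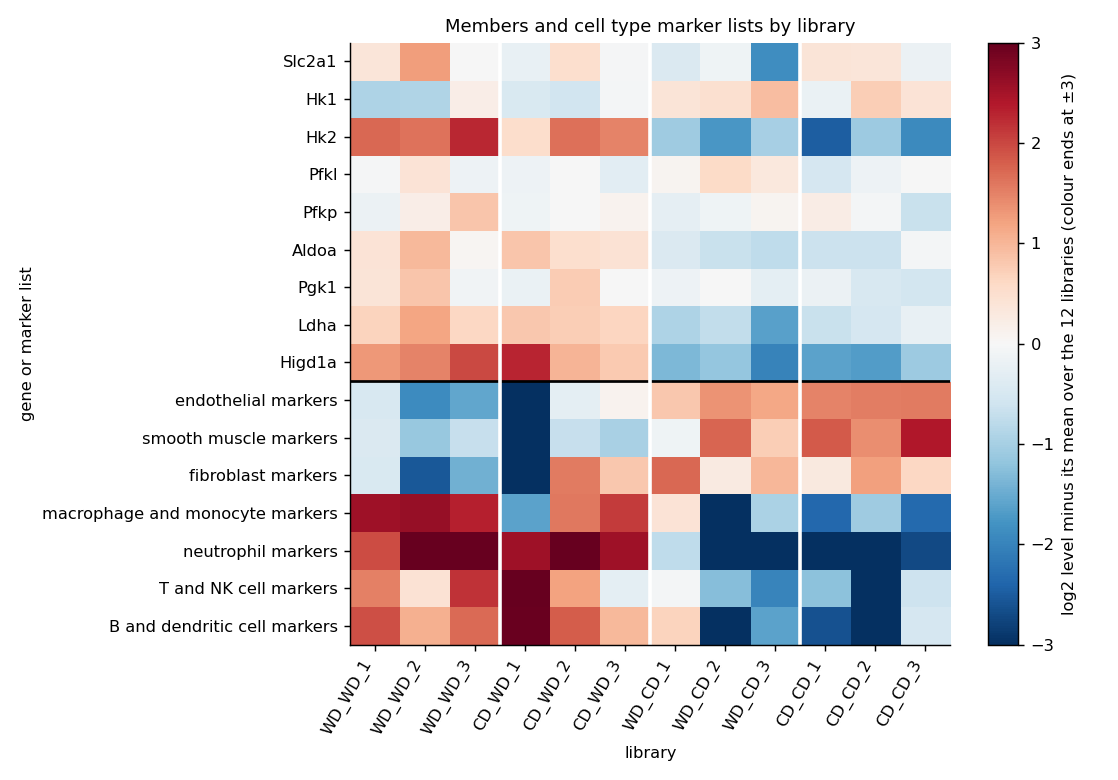
Log2 level of each of the 9 genes and mean log2 level of 7 cell type marker lists (y axis) in each library (x axis), each minus its own mean over the 12 libraries; red is above and blue below that mean, and the colour ends at 3 units on either side. The WD libraries, on the left, are red for Hk2, Higd1a and the neutrophil markers and the CD libraries are blue. CD_WD replicate 1 is blue for macrophage markers, unlike the other WD libraries. Endothelial markers are blue in each WD library but CD_WD replicate 3, and deepest in CD_WD replicate 1.

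The mother's diet, which the series sets out to follow, was tested within each offspring diet. No member passed, and neither did any other gene of the table: limma called 0% of genes in WD offspring (628 at an unadjusted p under 0.05) and 0% in CD offspring (276 at an unadjusted p under 0.05). edgeR on the recovered reads called 0 in both, and DESeq2 called 14 in WD offspring and 9 in CD offspring, none of them a member. In WD offspring, WD_WD minus CD_WD, the log2 differences ran from -0.17 for Hk1 to 0.66 ± 0.44 for Hk2 (95% interval -0.29 to 1.60), with adjusted p between 0.878 and 0.989. In CD offspring, WD_CD minus CD_CD, they ran from -1.002 ± 0.49 for Slc2a1 (95% interval -2.06 to 0.06) to 0.55 ± 0.44 for Hk2, with adjusted p of 0.9998 throughout. With 3 libraries against 3, a change of Slc2a1 within so wide an interval could not be resolved. Each WD_CD library was above each CD_CD library for Pfkl, at log2 0.54 ± 0.31, and below each for Ldha, at -0.64 ± 0.32, yet neither passed. A full separation of 3 libraries from 3, here as for Slc2a1 and Hk1 above, has a two-sided exact permutation p of 0.1. The share of all genes so separated was not counted. In the authors' deposited table the comparison of WD_CD with CD_CD gave Ldha a log2 fold change of -0.60 (p = 0.0639) and Pfkl one of 0.54 (p = 0.0579), with an adjusted p above 0.9999 for both. The authors' deposited table gave Hk2 a log2 fold change of 0.61 in WD offspring, with adjusted p = 0.748, the lowest among the members there.

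The interaction asked whether the offspring's diet acted differently with WD and with CD mothers. limma called 0% of the table (342 genes had an unadjusted p under 0.05). Neither the 0 calls of edgeR nor the 10 of DESeq2 held a member. Among the members the interaction ran from -0.46 ± 0.59 for Hk1 to 1.45 ± 0.69 for Slc2a1, with adjusted p = 0.997 for each. For Ldha it was 0.72 (95% interval -0.26 to 1.70), so its larger rise with WD mothers was not shown to differ from that with CD mothers. For Hk2 it was 0.10 (95% interval -1.24 to 1.45) and for Higd1a 0.27 (95% interval -0.98 to 1.53).

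Levels between genes were compared as normalised counts per kilobase of annotated exon. All annotated exons of a gene were joined for this, from 2244 bases for Pgk1 to 13401 for Pfkp. Which transcripts the libraries held was not tested, so the order depends in part on the annotation. In WD_WD the order was Aldoa (3925 ± 1283), Ldha (2857 ± 638), Higd1a (1296 ± 329), Pgk1 (512 ± 160), Hk2 (345 ± 86.7), Slc2a1 (193 ± 90.8), Pfkl (93.9 ± 20.5), Pfkp (67.9 ± 24.4) and Hk1 (31.7 ± 15.5), each as mean ± SD. In CD_CD it was Aldoa (2031 ± 492), Ldha (1164 ± 178), Pgk1 (291 ± 42.4), Higd1a (155 ± 36.1), Slc2a1 (145 ± 29.4), Pfkl (76.2 ± 13.3), Hk1 (55.2 ± 17.2), Pfkp (49.3 ± 14.9) and Hk2 (28.04 ± 13.8). Hk2 was thus the lowest of the 9 in CD_CD and Hk1 the lowest in WD_WD. In WD_WD, Aldoa and Ldha, and all neighbours from Pgk1 down to Hk1, differed by less than the sum of their SDs. In CD_CD this held for Higd1a and Slc2a1 and for the neighbours from Pfkl down to Hk2. CD_WD kept the order of WD_WD, from Aldoa at 4103 ± 622 to Hk1 at 33.7 ± 6.60 counts per kilobase. In WD_CD, Pgk1 stood above Higd1a as in CD_CD, and Hk2 was again lowest, at 39.1 ± 10.3 counts per kilobase.

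The other genes of glycolysis that passed at the deposited scaling were higher in WD offspring, a direction that did not hold for the list under equal totals. Of 19 measured genes, 6 rose and 0 fell with WD mothers, against 1 and 4 under equal totals, and 4 rose and 0 fell with CD mothers, against 0 and 3 under equal totals. TMM scaling gave 6 and 0 with WD mothers and 4 and 0 with CD mothers, with list medians of log2 1.23 and 0.71. Over all 10655 genes, 14.2% rose with WD mothers and 9.46% with CD mothers at the deposited scaling. Equal totals called 439 genes of the table higher and 4284 lower with WD mothers, and 291 and 4097 with CD mothers. The median log2 fold change of the list was 1.35 with WD mothers and 0.78 with CD mothers, against 0.0066 and -0.02 over all genes, and turned to -0.025 and -0.45 under equal totals, against -1.36 and -1.45 over all genes. Gapdh, the dehydrogenase between aldolase and Pgk1, rose by log2 2.12 ± 0.34 (adjusted p = 0.00152) with WD mothers and 1.89 ± 0.34 (adjusted p = 0.00393) with CD mothers. Pkm, pyruvate kinase, rose by log2 1.68 ± 0.34 (adjusted p = 0.00473) with WD mothers and by 1.26 ± 0.34 (adjusted p = 0.0267) with CD mothers, and under equal totals was at 0.30 and, turned, at -0.18, neither called. Slc16a3, the lactate exporter MCT4, had 434, 1498 and 590.0 normalised counts in WD_WD and 199, 63.4 and 120.4 in WD_CD, and passed with WD mothers (adjusted p = 0.00905) and with CD mothers (adjusted p = 0.0275). Neither Gapdh nor Slc16a3 was called under equal totals, though both kept their direction. Slc2a6, a glucose transporter family member found in white blood cells, had 267, 1043 and 776 normalised counts in WD_WD and 5.51, 0 and 0 in WD_CD, so its fold change rests on the pseudocount. Without CD_CD replicate 1, a library at 0 for Slc2a6, its log2 fold change with CD mothers was 3.62 and not called (adjusted p = 0.071), as it was without CD_WD replicate 2 or 3 (adjusted p = 0.0756 and 0.0576). With CD mothers Pkm and Slc16a3 lost the call without CD_WD replicate 2 (adjusted p = 0.0602 and 0.106) or any one CD_CD library (adjusted p between 0.0572 and 0.0969).

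The pentose phosphate branch, which leaves glycolysis after hexokinase and makes NADPH, had 3 of 7 measured genes higher and 0 lower with WD mothers and 2 higher and 0 lower with CD mothers, against 1 higher and 2 lower, and 2 higher and 1 lower, under equal totals. TMM scaling gave 3 higher and 0 lower with WD mothers and 2 higher and 0 lower with CD mothers. Over all 10655 genes 14.2% and 9.46% were called higher at the deposited scaling. Equal totals called 439 genes of the table higher and 4284 lower with WD mothers, and 291 and 4097 with CD mothers. The list's median log2 fold change was 1.21 with WD mothers and 0.58 with CD mothers, and under equal totals -0.18 and -0.86, against -1.36 and -1.45 over all genes. Taldo1, transaldolase, had 7146, 9141 and 5789 normalised counts in WD_WD and 1826, 1334 and 2184 in WD_CD, and 10927, 8941 and 6037 in CD_WD and 1245, 1387 and 1921 in CD_CD. No WD library overlapped a CD library. It rose by log2 2.05 ± 0.34 (adjusted p = 0.00174) with WD mothers and 2.49 ± 0.34 (adjusted p = 0.00127) with CD mothers. Pgls, 6-phosphogluconolactonase, rose by log2 2.98 ± 0.39 (adjusted p = 0.000568) and 2.67 ± 0.39 (adjusted p = 0.00159) in the same comparisons. Tkt, transketolase, rose with WD mothers by log2 1.97 ± 0.47 (adjusted p = 0.0112). Under equal totals these 3 genes kept their direction, but Taldo1 and Tkt were no longer called with WD mothers.

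Pyruvate entry into mitochondria and the TCA cycle had 6 of 27 measured genes higher and 1 lower with WD mothers and 4 higher and 0 lower with CD mothers. Taken in either direction, this was near the shares of 24.4% and 15% called over all genes. By direction, 14.2% of all genes were higher and 10.2% lower with WD mothers, and 9.46% and 5.55% with CD mothers. The calls of the list thus lay more on the higher side. Under equal totals none of the 27 was called higher, and 14 were lower with WD mothers and 16 with CD mothers. Over all 10655 genes, 439 were then called higher and 4284 lower with WD mothers, and 291 and 4097 with CD mothers. At the deposited scaling the list's median log2 fold changes were 0.23 with WD mothers and -0.10 with CD mothers. Both subunits of the mitochondrial pyruvate carrier rose: Mpc1 by log2 2.16 ± 0.30 (adjusted p = 0.000691) and Mpc2 by 1.91 ± 0.40 (adjusted p = 0.00592) with WD mothers. With CD mothers Mpc1 rose by log2 1.67 ± 0.30 (adjusted p = 0.00362) and Mpc2 by 1.76 ± 0.40 (adjusted p = 0.0127). Sdhb, a subunit of succinate dehydrogenase, rose by log2 1.57 ± 0.33 (adjusted p = 0.0059) with WD mothers and 1.21 ± 0.33 (adjusted p = 0.0279) with CD mothers, the second turning to -0.23 under equal totals. The malate dehydrogenases were called once each, Mdh1 with WD mothers (log2 1.37 ± 0.37, adjusted p = 0.0185) and Mdh2 with CD mothers (log2 1.23 ± 0.33, adjusted p = 0.0248), and under equal totals they were at -0.01 and -0.21. With CD mothers, Mpc2, Mdh2 and Sdhb each lost the call without CD_CD replicate 1 or replicate 2, with adjusted p between 0.0505 and 0.11, as did Mdh2 without CD_CD replicate 3 (adjusted p = 0.0596) and Sdhb without CD_WD replicate 1 (adjusted p = 0.0535). Mdh1 lost its call without WD_WD replicate 2 (adjusted p = 0.0608) or WD_CD replicate 2 (adjusted p = 0.0758).

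Among 29 measured other hypoxia response genes, 4 rose and 4 fell with WD mothers, and 1 rose and 3 fell with CD mothers, near the shares of 24.4% and 15% called over all genes, and the median log2 fold changes were 0.23 and -0.07. Under equal totals 0 rose, and 13 fell with WD mothers and 14 with CD mothers. Of all 10655 genes, 439 rose and 4284 fell with WD mothers at that scaling, and 291 and 4097 with CD mothers. Hif1a itself had 316, 981 and 626 normalised counts in WD_WD and 619, 418 and 467 in WD_CD, and 745, 437 and 559 in CD_WD and 499.9, 720.5 and 381 in CD_CD. Those groups overlapped, with log2 differences of 0.23 ± 0.44 (adjusted p = 0.726) with WD mothers and 0.14 ± 0.44 (adjusted p = 0.878) with CD mothers. Hif1a is no gene of the naming rule and was chosen after its values were seen. Epas1, the HIF-2α gene that endothelial cells express strongly, had 719, 321 and 732 normalised counts in WD_WD and 4907, 7848 and 5875 in WD_CD, and 81.1, 674 and 769 in CD_WD and 5110.1, 6564 and 6100.1 in CD_CD. Each WD library was far below each CD library, and Epas1 stayed called lower under equal totals. It fell by 3.46 ± 0.68 on the log2 scale (adjusted p = 0.0041) with WD mothers, and with CD mothers it fell by 4.08 ± 0.68 (adjusted p = 0.00269). The endothelial marker sum was also lower in each WD library, and lowest, like Epas1, in CD_WD replicate 1.

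Pdk1, the kinase that shuts pyruvate out of the TCA cycle, rose by log2 2.55 ± 0.67 (adjusted p = 0.0171) with WD mothers and 2.33 ± 0.67 (adjusted p = 0.0354) with CD mothers. Its highest value by far, 2008 normalised counts, was in CD_WD replicate 1, and without that library the log2 difference with CD mothers was 1.42 and not called (adjusted p = 0.118). Leaving out any other of these libraries but CD_WD replicate 3 also ended that call (adjusted p between 0.0592 and 0.112), and with WD mothers leaving out WD_WD replicate 1 or WD_CD replicate 2 did (adjusted p = 0.054 and 0.0524). Higd2a, the family relative of Higd1a, rose with WD mothers by log2 1.63 ± 0.39 (adjusted p = 0.0106), and Fam162a, a mitochondrial protein induced by low oxygen, by 1.54 ± 0.38 (adjusted p = 0.0133, or 0.0562 without WD_CD replicate 2). With CD mothers, Ndrg1, a stress-responsive gene, fell by 1.92 ± 0.58 on the log2 scale (adjusted p = 0.0432), and Lox, the collagen crosslinking enzyme, fell by 3.76 ± 1.16 (adjusted p = 0.0454). Lox was also called with WD mothers, where it fell by 3.73 ± 1.16 on the log2 scale (adjusted p = 0.0338), a call for which the alternatives were not run. With CD mothers both lost the call without any one CD_CD library (adjusted p between 0.0712 and 0.149), and Lox also without CD_WD replicate 1 (log2 -2.43, adjusted p = 0.134).

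**Figure D5:**
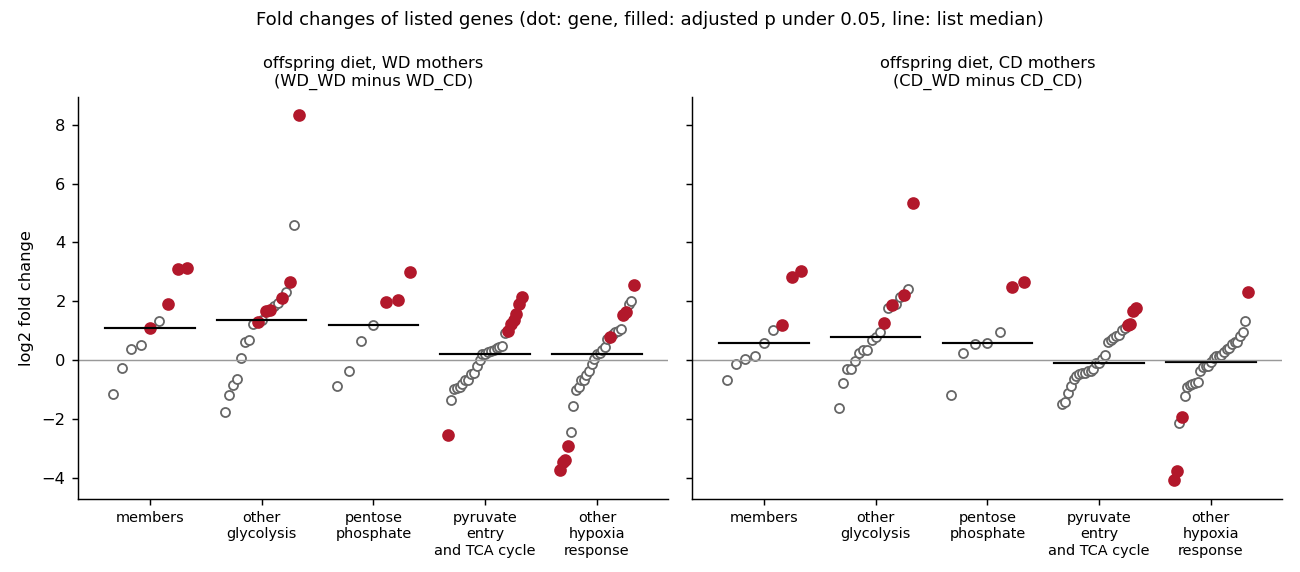
Log2 fold change (y axis) of each measured gene of 5 lists (x axis), on the left WD_WD against WD_CD and on the right CD_WD against CD_CD; filled points have an adjusted p under 0.05 and black lines are list medians. The medians of glycolysis and pentose phosphate genes lie above 0 and those of the TCA cycle and other hypoxia genes near 0, at the deposited scaling. Under equal totals all 5 medians turn to below 0 or stay there, and the median of all genes is -1.36 with WD mothers and -1.45 with CD mothers.

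Genes whose pattern over the 12 libraries was most like that of a member were found by Pearson's r of log2 levels, as a description. For Hk2 these were Hilpda, a lipid droplet protein gene induced by low oxygen, at r = 0.97, and Nars, an aminoacyl-tRNA synthetase gene, at r = 0.97. Within the 6 WD libraries alone r was 0.61 for Hilpda and 0.70 for Nars, and within the 6 CD libraries 0.87 and 0.83. For Higd1a they were Mrps14, a mitochondrial ribosomal protein gene, and Dcun1d5, each at r = 0.99, with r of 0.88 and 0.92 in the WD libraries. For Ldha they were Smim4 (r = 0.98) and Pfdn4 (r = 0.97), for Aldoa Mrps15 and Srgn (r = 0.97 each), and for Hk1 Ddb1 (r = 0.97) and Herc2 (r = 0.93). For the remaining members r ran from 0.81 for Pfkl with Dip2a to 0.94 for Slc2a1 with Best1. All libraries share the split by offspring diet and its size factors, which enter each r.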

How the data were processed

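Preparations labelled as aortic endothelial cells were profiled by SMART-seq, which sequences RNA over its full length, in 12 libraries, 3 for each of 4 groups. The submitters' processing notes name HISAT2 2.2.1, featureCounts 2.0.1, Trim Galore 0.6.10, SAMtools 1.13, FastQC 0.12.1, DESeq2 and the GRCm38 (mm10) genome, without settings. The authors deposited a normalised signal per gene and library, which is a read count divided by a size factor: 100% of the 127860 values were whole multiples of 1 read within 0.01. For CD_CD replicate 3 the spacing of values made the lowest one 3 reads. For both comparisons of the mother's diet the authors deposited each gene's log2 fold change and p-value, raw and adjusted. The reads recovered this way were used only for the alternatives with edgeR and DESeq2 and for depth. The deposited table had no column of per-sample values left unused (0).

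A pseudocount of 1 was added, which understates the change of low genes, and limma 3.58.1 (R 4.3.3) with a mean-variance trend was fitted to all 10655 genes and 12 libraries, with a mean per group leaving 8 residual degrees of freedom. A gene was called, in a two-sided test, at a Benjamini-Hochberg adjusted p under 0.05 over all genes. Isoenzyme ratios were tested by exact permutation of libraries within the other diet. The code was tested on simulated data. Members, lists and tests were chosen with earlier results of these data known. All members were named, and from each other list up to 4 genes with the smallest p among those called, per comparison. As genes most like a member, the 2 with the highest r among genes with a mean of at least 50 were named. Alternatives were the pseudocounts 0.5 and 10, a mean of at least 100, TMM scaling, equal totals, edgeR 4.0.16, DESeq2 1.42.0, library weights, only the groups compared, a replicate block, and each library left out in turn. Exon lengths and positions came from GENCODE M21, promoters from RefSeq, for 9 of the 9 members in the table.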

Additional observations from a re-analysis of the deposited data

How the results depend on the processing

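For the members, 810 fold changes were recomputed under alternatives, and 735 kept their direction and their side of the threshold, while 14 were no longer called, 11 became called and 50 changed sign. A fold change that had been called changed sign only under scaling to equal totals, which moves the median of all genes. For library weights, left-out libraries and tools the cause was not tested. The log2 ratios kept their direction and their side of the threshold in all 72 recomputations with a library left out and all 12 under other settings.

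Scaling to equal totals turned Ldha (-0.25), Aldoa (-0.41), Pgk1 (-0.87), Pfkl (-1.39), Pfkp (-1.28), Pkm (-0.18), Mdh2 (-0.21) and Sdhb (-0.23) to lower with CD mothers, and Aldoa (-0.28), Pgk1 (-0.86), Pfkp (-0.9997), Slc2a1 (-0.042) and Mdh1 (-0.011) with WD mothers. Of these, Ldha, Pkm, Mdh2 and Sdhb with CD mothers and Aldoa and Mdh1 with WD mothers had been called higher. It called 6 members with CD mothers, 2 of them higher, and 4388 of all genes, and 4723 of all genes with WD mothers. The interaction of Pgk1 became 0.014.

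Library weights, whose estimation stopped before it converged, called 6 members and 4241 of all genes with CD mothers, 2 genes for the mother's diet in WD offspring and 1 for the interaction. They gave Slc2a1 0.26 with CD mothers, Higd1a 0.0047 and Pgk1 -0.21 for the mother's diet, Higd1a in CD offspring and Pgk1 in WD offspring, and Hk2 -0.11 for the interaction. Pfkl with CD mothers was -0.036 with TMM scaling and -0.047 with edgeR. For the mother's diet DESeq2 called 14 of all genes in WD offspring and 9 in CD offspring, and for the interaction 10. Without both libraries that stood apart, 1 gene was called for the mother's diet in WD offspring. Slc2a1 with CD mothers was then 0.037, Aldoa in WD offspring 0.017, Pfkp and Higd1a in CD offspring -0.023 and 0.21, and Hk2 in the interaction -0.10.

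Same-numbered libraries did not deviate together: in 0 of 18 pairs was r over 0.1 (highest 0.074), so the numbers were not taken as pairs. With the replicate block 1 gene was called for the mother's diet in WD offspring, Aldoa with WD mothers lost its call (log2 1.10, adjusted p = 0.0593) and Slc2a1 gained one (log2 1.34, adjusted p = 0.0349). The calls of Aldoa with WD mothers and of Ldha with CD mothers were lost under further settings: Aldoa with TMM scaling (adjusted p = 0.0547) and edgeR (adjusted p = 0.0641), Ldha with edgeR and when only the groups compared were fitted (adjusted p = 0.0648). Hk1 with WD mothers became called with TMM scaling (adjusted p = 0.0445) and, like Pfkl, under equal totals with both kinds of mothers. Equal totals also called Pfkp and Slc2a1 lower with CD mothers, where the median of all genes was log2 -1.45.

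With one library left out at a time, all genes called ranged from 0 to 10 for the mother's diet in WD offspring and from 0 to 3 in CD offspring, and, between the offspring diets, from 1593 to 2310 with WD mothers and from 698 to 1714 with CD mothers. For the mother's diet in CD offspring, Pfkp ranged from -0.19 to 0.27, Aldoa from -0.27 to 0.013 and Higd1a from -0.22 to 0.21. In WD offspring, Hk1 ranged from -0.55 to 0.020, Aldoa from -0.35 to 0.11, Pgk1 from -0.025 to 0.49, Ldha from -0.092 to 0.18 and Higd1a from -0.053 to 0.69. With CD mothers, Slc2a1 ranged from -0.33 to 0.037, Pfkl from -0.090 to 0.16 and Pfkp from -0.094 to 0.36. For the interaction, Hk2 ranged from -0.26 to 0.43, Pfkp from -0.047 to 0.48, Aldoa from -0.17 to 0.29, Pgk1 from -0.27 to 0.24 and Higd1a from -0.010 to 0.73. Every member had at least 75 reads in every library.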
